A study of Mus musculus with 68 samples.

Results

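The semaphorin, plexin and neuropilin genes were examined in cultured long-bone mesenchymal stromal cells of mice. A name rule over the gene symbols (Sema3 to Sema7 with a letter, Plxna to Plxnd with a number, Nrp1 and Nrp2) found 31 of the 27179 genes in the counts table. They were 20 semaphorins, 9 plexins and 2 neuropilins. The name rule itself used no measured value, but the family was selected on the measured levels of Sema3b and Plxnb1, which ranked low in Het 12M against WT 12M cultures. Members are therefore described without a test in that comparison, and Sema3b and Plxnb1 are described without a test wherever a 12-month group enters.

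Every mouse carried Prrx1-Cre, a recombinase transgene driven from limb mesenchyme. Het mice had it together with 1 floxed allele of Ezh2, the histone H3 lysine 27 methyltransferase of Polycomb repressive complex 2, and WT mice with none. Cultures were made at 3 months (3M) and 12 months (12M) of age and grown in ordinary medium. This gave WT 3M (n = 4; S3, S4, S5 and S12), Het 3M (n = 3; S8, S10 and S14), WT 12M with S2, S6, S7 and S13 (n = 4) and lastly Het 12M with S1, S9, S11, S15, S16 and S17 (n = 6). Each n is a biological sample with 4 technical replicates summed. The design text speaks of 3 per group, which differs from these counts taken from the sample labels. Nothing in the labels says which samples came from separate mice, so p-values measure only the spread between these cultures.

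Depth ran from 13687876 to 28597221 counts per sample. Ezh2 stood at 12.6 ± 2.33 CPM (read counts relative to library size, scaled by the trimmed mean of M values, TMM) in WT 3M, 11.1 ± 2.29 in Het 3M, 19.8 ± 12.3 in WT 12M and 17.8 ± 5.52 in Het 12M (SD), so the groups were not separated by the total Ezh2 transcript. Gene counts can include exons outside the floxed stretch. The 12 stromal markers, Prrx1, Pdgfra and Col1a1 among them, summed to between 7851 and 34380 CPM per sample, which fits the labelled cell type. Most of each sum came from Col1a1, Col1a2 and Col3a1. By label WT 3M S3 and S4, Het 3M S14, WT 12M S6 and S7 and every Het 12M sample but S17 were female. WT 3M S5 and S12, Het 3M S8 and S10, WT 12M S2 and S13 and Het 12M S17 were labelled male. In WT 12M S2, S6 and S13 the Xist and Y-linked transcripts went against the labelled sex. In WT 12M S7, labelled female, both kinds were present, so there only the Y-linked transcripts went against the label. Results on WT 12M therefore refer to libraries carrying that label. Macrophage markers summed to 41460 CPM in Het 12M S9, above its stromal sum of 24220 CPM, and to at most 2941 elsewhere. Schwann and neural crest markers summed to 1358 CPM in WT 12M S6, of which 722 CPM was Ngfr and 231 CPM Sox10. There S100b at 13.1 CPM and Ednrb at 0.432 CPM were not raised, while every other marker of the list was highest in S6. The same markers came to 1200 CPM in Het 12M S9, of which 1143 CPM was Ednrb alone with Sox10 at 1.66 CPM. In the other libraries they came to at most 120.7 CPM. Het 3M S8 and S10 were the most alike pair of samples, with a chi-square per degree of freedom of 17.4, against 38.6 for the next pair. Whether they share a mouse or culture was not tested, and if they do Het 3M holds 2 independent cultures, not 3.

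Semaphorins are ligands, first known for steering axons and later for acting on blood vessels, immune cells and bone. The secreted class 3 proteins mostly bind a neuropilin, which presents them to a class A plexin or to Plexin-D1, while the membrane-bound classes 4 to 7 mostly bind plexins directly. Plexins carry an intracellular GTPase-activating domain for Ras-family proteins and reshape the cytoskeleton and integrin adhesion. In bone, Sema3A and Sema4D are known to act in opposite directions on bone formation, Sema4D from osteoclasts through Plexin-B1 on osteoblasts.

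For 26 of the 31 genes the RefSeq table of GRCm38.p6 gave the stretch before an annotated start, and Plxna1, Plxna4, Sema3b, Sema3f and Sema6a had no entry. Polycomb repressive complex 2 is known to bind mainly at promoters rich in the dinucleotide CG, so CG was counted in the 250 bases before each start. CG is its own reverse complement, and both strands give the same count. The family's 37 windows held a median of 13 CG, against 6 over all 32851 windows of the table, whose quartiles were 2 and 16. All windows include those of genes with too few counts to be tested here, and no set of genes matched for expression was compared. Taking the richest window of each gene, 21 of the 26 members lay above the median of 6 over 27025 genes, beside 48.6% of all genes. 3 windows are printed with each CG in capitals: Plxnb1, the receptor among the genes that led to the family being chosen, and Sema3c and Sema3a, which lay lower together in Het 3M and stand at opposite ends of the CG range. All are on the plus strand, 5′ to 3′. Plxnb1 is chr9:109095186-109095435, with 30 CG (5.94% of all windows had as many or more). This window lies inside the RefSeq gene span of Plxnb1 (109093849 to 109119915), before an internal start. Sema3c is chr5:17574566-17574815, with 39 (1.56%). Sema3a is chr5:13396534-13396783, with 2 (81.2%), before a start that likewise lies inside its RefSeq gene span (13124822 to 13603485).
Plxnb1: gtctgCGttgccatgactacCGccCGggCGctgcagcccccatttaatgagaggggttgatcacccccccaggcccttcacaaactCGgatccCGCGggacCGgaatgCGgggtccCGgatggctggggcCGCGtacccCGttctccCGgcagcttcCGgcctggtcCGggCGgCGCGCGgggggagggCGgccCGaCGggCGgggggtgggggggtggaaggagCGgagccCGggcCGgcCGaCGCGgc
Sema3c: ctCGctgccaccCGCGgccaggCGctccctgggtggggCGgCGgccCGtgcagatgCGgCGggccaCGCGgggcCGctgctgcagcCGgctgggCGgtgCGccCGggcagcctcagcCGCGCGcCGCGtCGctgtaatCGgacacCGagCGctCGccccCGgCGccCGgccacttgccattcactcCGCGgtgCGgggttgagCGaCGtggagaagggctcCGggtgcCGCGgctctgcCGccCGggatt
Sema3a: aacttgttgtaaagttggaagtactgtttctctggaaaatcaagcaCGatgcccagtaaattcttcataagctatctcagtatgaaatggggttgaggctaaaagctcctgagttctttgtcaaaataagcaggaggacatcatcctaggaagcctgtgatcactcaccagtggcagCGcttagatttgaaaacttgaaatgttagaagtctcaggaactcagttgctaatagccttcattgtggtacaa
A CG count describes letters only, since no histone mark was measured here.

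The family was unevenly expressed. Compared per length, as TMM-scaled RPKM (CPM per kilobase of exon, mean ± SD over the 17 samples), Plxnb2 was highest at 63.3 ± 8.61. This receptor of class 4 semaphorins also varied little, between 45.5 and 83.1. Sema3c, a secreted ligand of the neuropilins and Plexin-D1, followed at 37.3 ± 20.8, but ran from 3.09 to 72.5. The co-receptor Nrp1, shared by class 3 semaphorins and vascular endothelial growth factor (VEGF), had 27.6 ± 14.6. Plxna1, a class A receptor that pairs with neuropilins, had 26.5 ± 7.32, and Nrp2, the co-receptor for Sema3C, Sema3F and VEGF-C, had 16.3 ± 7.39. In this order Sema3c and Nrp1, Nrp1 and Plxna1, and Nrp2 and the next gene differed by less than the SD of either, while Plxnb2 stood above Sema3c by more than both SDs. The 5 genes together held 70.6% ± 10.7 of the summed level of the family, from 37.5% to 80.9% between samples. Next came Sema3b at 13.98 ± 10.2 and Plxnd1, the receptor best known from vessel patterning, at 10.7 ± 14.7. The order differed between groups. The group mean of Sema3b was 9.64 RPKM in WT 3M, 16.6 in Het 3M, 25.8 in WT 12M and 7.68 in Het 12M, and in WT 12M it stood above Plxna1 at 24.4, Nrp1 at 22.3 and Nrp2 at 13.03. At the other end, Sema5b had at most 0.432 CPM in any sample and was the 1 member that did not pass the filter on low counts. Plxnb3 passed although only 6 of the 17 samples reached the cutoff.

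**Figure D1:**
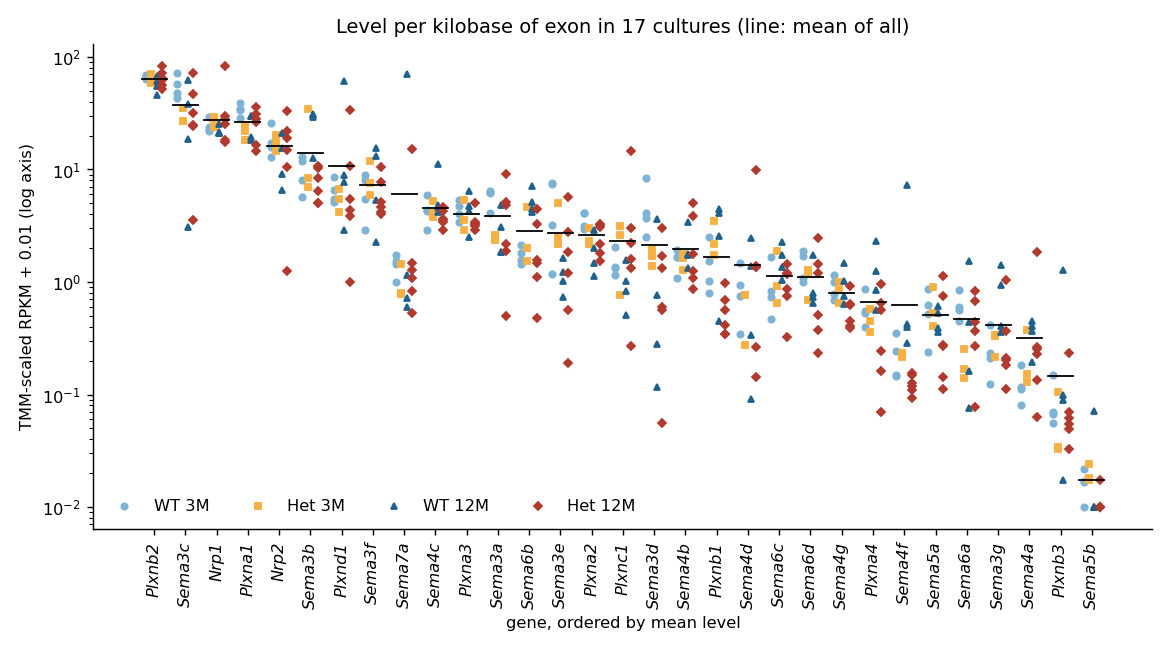
Level of each of the 31 genes (horizontal axis, ordered by mean) in TMM-scaled RPKM plus 0.01 (vertical log axis), with 1 point per sample, marked by group, and a black line for the mean of 17 samples. Plxnb2 lies highest with a narrow spread, and Sema7a, Plxnd1 and Sema3d scatter widely.

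Within every class 1 or 2 genes carried most of the level per length. In class 3, Sema3c and Sema3b were followed by Sema3f, a repellent ligand of Nrp2, at 7.25 ± 3.74 RPKM, Sema3a, the founding repellent ligand of Nrp1, at 3.86 ± 2.26, Sema3e, a direct ligand of Plexin-D1, at 2.70 ± 2.34, Sema3d at 2.10 ± 2.08 and Sema3g at 0.407 ± 0.362. In class 4, Sema4c, a Plexin-B2 ligand, led at 4.56 ± 1.86, before Sema4b, Sema4d, Sema4g, Sema4f and Sema4a, the last at 0.306 ± 0.413. Of class 5, whose members carry thrombospondin repeats, Sema5a had 0.498 ± 0.282. Of class 6, transmembrane ligands of class A plexins, Sema6b had 2.84 ± 1.83, with Sema6c, Sema6d and Sema6a below it. The GPI-anchored Sema7a, a ligand of Plexin-C1 and beta-1 integrin, averaged 6.02 ± 17.03, a mean carried by single samples described below. Plxna3, Plxna2 and Plxna4 had 4.01 ± 1.09, 2.60 ± 0.878 and 0.656 ± 0.517. Plxnb1, the Sema4D receptor, had 1.65 ± 1.35, and Plxnc1, the Sema7A receptor, 2.30 ± 3.26.

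Levels below are TMM-scaled CPM and are compared only within a gene. The highest members of their classes set the frame. Plxnb2 had 495, 538, 506 and 523 in WT 3M S3, S4, S5 and S12, 540.0, 460.4 and 451 in Het 3M S8, S10 and S14, and 428, 520.4, 476 and 351 in WT 12M S2, S6, S7 and S13. In Het 12M it ran from 403 through a median of 490.4 to 641. All 4 groups of Plxnb2 overlapped. Nrp1 had 214, 231, 285 and 218 in WT 3M, 268, 288 and 232.5 in Het 3M and 250.3, 212, 205 and 207 in WT 12M. In Het 12M it ran from 170.5 through 262 to 806, the last in S9, and the groups overlapped, with S9 above all other samples. Sema4c had 20.1, 27.1, 13.3 and 19.8 in WT 3M, 23.9, 17.2 and 18.8 in Het 3M, 21.2, 51.0, 22.1 and 19.0 in WT 12M, while the 6 Het 12M samples lay at 13.2 to 21.3 with a median of 16.4. Here WT 12M S6 alone stood apart. Sema5a had 9.51, 16.1, 11.4 and 4.23 in WT 3M, 9.70, 7.43 and 16.6 in Het 3M and 9.64, 6.58, 7.03 and 11.2 in WT 12M. In Het 12M its lowest level was 1.91 and its median 4.92, and the highest, in S16, lay above every sample of the other groups.

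The comparison of Het 3M with WT 3M, which asks what loss of 1 Ezh2 allele does in young cultures, compared none of the samples behind the choice of the family, although the fit takes its spread from all 17 samples. Het 3M lay below WT 3M without overlap for Plxna1, for the secreted ligands Sema3a, Sema3c and Sema3d, and for the transmembrane ligand Sema6a. These were 5 of the 30 tested members, beside 3.57% of all 14897 genes tested. No member lay above WT 3M without overlap, beside 3.21% of all genes. None of the differences passed the test: 0 of 30 members and 0% of all genes had an edgeR quasi-likelihood adjusted p (Benjamini-Hochberg) under 0.05, and DESeq2 likewise called 0 members and 0% of genes. At an unadjusted p under 0.05 edgeR had 1 member, Plxna1, beside 1.6% of all genes. Of the 30 members 19 were fitted lower and 11 higher, with a median log2 difference of -0.11, while 52.5% of all genes were fitted lower with a median of -0.02.

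Plxna1 had 307, 309, 260.4 and 349.9 CPM in WT 3M S3, S4, S5 and S12 and 227, 166 and 197 in Het 3M S8, S10 and S14. Every Het 3M sample was below every WT 3M sample, and the log2 difference was -0.64 ± 0.30 (SE; 95% interval -1.28 to -0.00, edgeR adjusted p = 1.00). Plxna1 shares 970 of its 9054 exon bases with Gm26811 on the other strand, and reads of the 2 cannot be told apart in an unstranded library. All 4 class A plexins were fitted lower in Het 3M. For Plxna2, another receptor of class 3 and class 6 semaphorins, the difference was -0.53 ± 0.32, with 53.6, 51.1, 70.7 and 70.3 CPM in WT 3M against 51.3, 39.4 and 37.0 in Het 3M, which overlapped. At 12 months Plxna1 had 166, 272, 176 and 269.8 CPM in WT 12M S2, S6, S7 and S13 and ran from 131 through 246 to 327 across the 6 Het samples.

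Sema3a had 88.0, 88.6, 85.4 and 57.1 CPM in WT 3M and 32.7, 33.5 and 36.1 in Het 3M. The Het 3M values lay close together and below the lowest WT 3M sample, at a log2 difference of -1.23 ± 0.64. Sema3c had 414, 341, 514 and 306 CPM in WT 3M and 191, 192 and 251 in Het 3M, at -0.90 ± 0.78. Sema3d had 31.9, 35.1, 72.3 and 21.6 CPM in WT 3M and 16.6, 14.7 and 11.9 in Het 3M, at -1.48 ± 1.05. Sema3a, Sema3c and Sema3d, with Sema3e, lie on chromosome 5, and Sema3e was at 29.8, 10.8, 69.7 and 69.5 CPM against 23.3, 20.0 and 46.5, with overlap. Sema6a had 5.21, 7.34, 3.89 and 4.86 CPM in WT 3M and 2.14, 1.39 and 1.14 in Het 3M, at -1.77 ± 0.88. The edgeR adjusted p of each of these 4 genes was 1.00. The 12-month libraries widen these SEs. In a fit of the 7 young samples alone the differences were nearly the same, with an SE of 0.21 for Sema3a, 0.24 for Sema3c, 0.39 for Sema3d, 0.37 for Sema6a and 0.20 for Plxna1. There 6 of 29 tested members, these 5 and Plxna2, had an unadjusted edgeR p under 0.05, beside 5.41% of genes. None passed after adjustment, beside 0% of genes, the smallest edgeR adjusted p of a member being 0.285 for Sema3a. With each of the 7 samples left out in turn, the count of members lower without overlap ran from 5 to 7, beside between 4.81% and 9.58% of all genes. Without S8 or without S10 it was 7 or 5 members. At unchanged scaling, leaving out a sample cannot make separate groups overlap. The count could then only stay or rise, and it does not measure stability. Sema3d was named after its values were seen.

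At 12 months the same ligands were spread widely. Sema3a had 42.3, 25.3, 25.7 and 66.8 CPM in WT 12M and ran from 6.80 through 48.5 to 126 over the Het samples. Sema3c had 270.5, 22.0, 134 and 441 CPM in WT 12M and ran from 25.4 through 201 to 518. Sema6a had 0.574, 13.4, 1.32 and 3.75 CPM in WT 12M and ran from 0.589 through 3.47 to 7.14. In each of the 3 genes the Het 12M samples overlapped those of WT 12M.

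**Figure D2:**
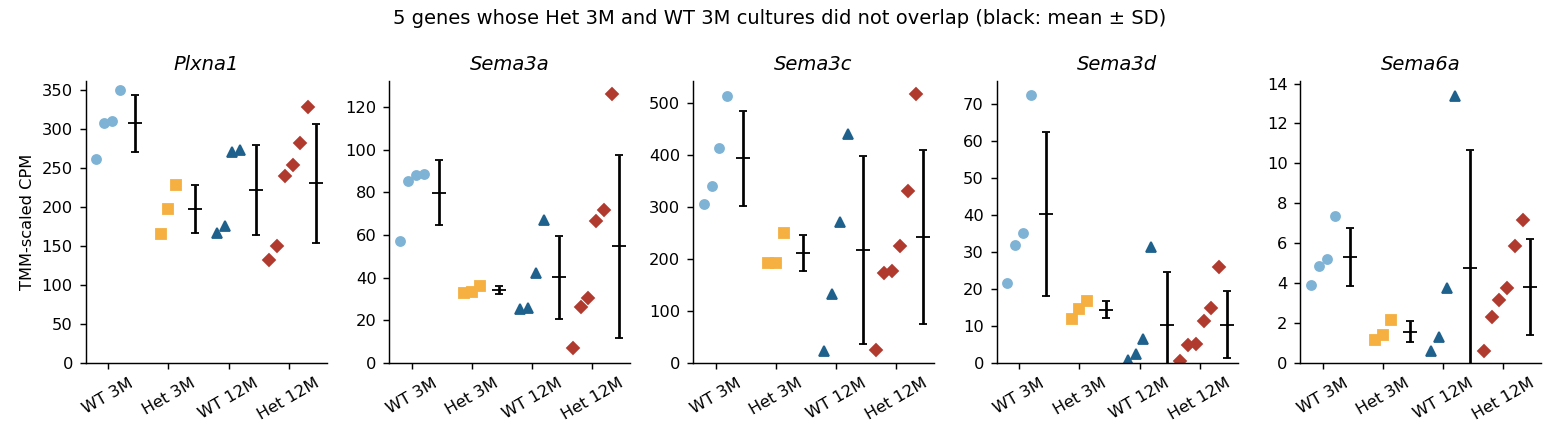
TMM-scaled CPM (vertical axes, from 0) of the 5 genes whose Het 3M and WT 3M samples did not overlap, with 1 point per sample in 4 groups (horizontal axes) and the mean ± SD in black, cut at 0. The Het 3M points lie below all WT 3M points in each panel, and each 12-month group overlaps both young groups.

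Sema3b and Plxnb1 showed no such split in young cultures. Sema3b, a secreted semaphorin studied as a tumour suppressor, lies on chromosome 9 (GRCm38, 107597674 to 107609241, minus strand), 72.3 kb from Sema3f. It had 62.1, 56.6, 27.3 and 38.2 CPM in WT 3M and 40.4, 33.6 and 163 in Het 3M. Only Het 3M S14 lay above the WT 3M samples, and the difference of 0.78 ± 0.49 became -0.32 ± 0.43 without it. In Het 3M only S14 was labelled female, so this sample and sex cannot be told apart there. With labelled sex, or the Y-linked transcripts, added to the fit the difference was 0.74 ± 0.37 or 0.67 ± 0.43. Plxnb1, on the same chromosome 1485 kb away, had 9.72, 7.59, 23.9 and 14.8 CPM in WT 3M and 20.9, 16.7 and 33.4 in Het 3M. The groups overlapped and the difference was 0.75 ± 0.59, or 0.43 ± 0.67 without S14 and 1.16 ± 0.63 without WT 3M S5. The edgeR adjusted p of both genes was 1.00.

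In the 12-month cultures Sema3b had 149, 140.1, 144 and 60.0 CPM in WT 12M S2, S6, S7 and S13 and ran from 24.1 through a median of 35.5 to 51.1 in Het 12M. The groups did not overlap, and WT 12M S13 lay nearest to the Het samples. The Het 12M range did overlap that of WT 3M, 27.31 to 62.15 CPM. The mean of WT 12M was 124 ± 42.5 CPM (SD, n = 4) and that of Het 12M 36.7 ± 12.1 (n = 6). The log2 difference was -1.75 ± 0.41. Plxnb1 had 24.5, 42.6, 39.5 and 4.18 CPM in the same WT 12M samples and ran from 3.21 through 4.64 to 9.36 in Het 12M. Here the groups overlapped, because WT 12M S13 lay below the Het 12M median. The mean was 5.27 ± 2.39 against 27.7 ± 17.6 CPM and the log2 difference -2.39 ± 0.50, or -2.76 ± 0.40 without S13. These are the values that selected the family, and are given as a description only. With each sample left out in turn, Sema3b lay between -1.99 and -1.65 and Plxnb1 between -2.76 and -2.11. Plxnb1 shares 257 of 9592 exon bases with Gm7628 on the other strand.

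**Figure D3:**
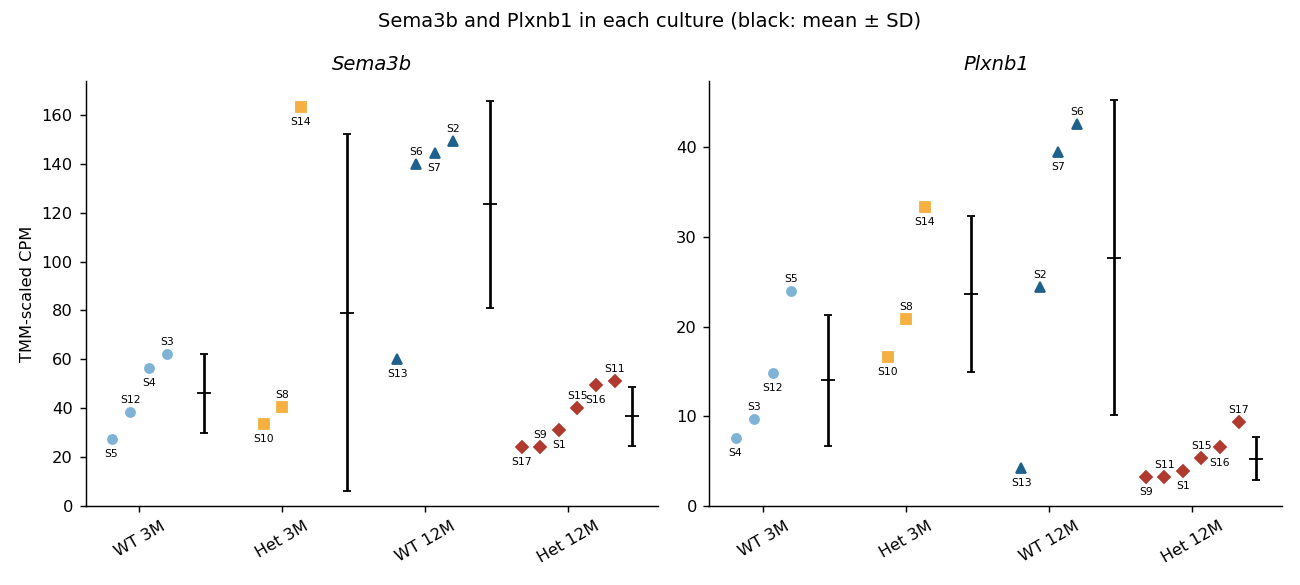
Sema3b (left) and Plxnb1 (right) in TMM-scaled CPM (vertical axes, from 0) in each named sample of the 4 groups (horizontal axes), with the mean ± SD in black. WT 12M S2, S6 and S7 and Het 3M S14 are high in both genes, and WT 12M S13 is the lowest of its group in both. All 6 Het 12M samples are low, and as a group they overlap the WT 3M samples in both genes.

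Between ages the fitted differences of the same 2 genes had opposite signs in the 2 genotypes. From WT 3M to WT 12M the log2 difference was 1.42 ± 0.47 for Sema3b and 0.98 ± 0.55 for Plxnb1. From Het 3M to Het 12M it was -1.11 ± 0.44 for Sema3b and -2.16 ± 0.53 for Plxnb1. In the Het cultures the difference of Sema3b rested on S14, the Het 3M sample labelled female, and without it was -0.01 ± 0.40. That of Plxnb1 lay between -2.43 and -1.83 with any 1 sample left out, and Het 12M lay below Het 3M without overlap, beside 1.42% of all genes. Plxnb1 was chosen for its low level in these Het 12M libraries, so nothing is read from its range or its lack of overlap. The difference between the 2 age effects was -2.53 ± 0.64 for Sema3b, or -1.44 ± 0.52 without Het 3M S14, and -3.14 ± 0.77 for Plxnb1. These contrasts share the 12-month libraries with the choosing contrast and carry no test.

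Cartilage markers varied between the same samples. The 12 chondrocyte markers summed to 12170, 3226, 23040 and 4677 CPM in WT 12M S2, S6, S7 and S13, to 17740 CPM in Het 3M S14 and to between 2471 and 4174 in Het 12M. Most of the sum was 1 gene, the cartilage matrix gene Comp, with 10030 CPM in S2, 18280 in S7 and 14120 in S14 but 746 in S6. Col2a1, the main cartilage collagen, gave another order, with 830.0 CPM in S2, 2316 in S6, 3286 in S7, 2611 in S14 and at most 1478 in Het 12M. In WT 3M the order of Sema3b ran against the marker sums, while that of Plxnb1 followed them. S3 and S4 had sums of 2452 and 2216 CPM with 62.1 and 56.6 CPM of Sema3b, while S5 and S12 had 10820 and 8460 CPM with 27.3 and 38.2 CPM of Sema3b. Plxnb1 had 9.72 and 7.59 CPM in S3 and S4 and 23.9 and 14.8 CPM in S5 and S12. By label S3 and S4 were female and S5 and S12 male, so cartilage markers and sex cannot be told apart in WT 3M. The part of cartilage-like cells in the Sema3b and Plxnb1 levels was not tested. In bulk RNA, fewer cells of a type and less RNA per cell cannot be told apart.

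Among other members at 12 months, the values of some turned on single libraries. Het 12M lay below WT 12M without overlap for Sema3b and Sema4f, 2 of 30 members beside 0.853% of all genes. No member lay above, beside 0.47%. By edgeR 0 members and 0% of genes passed. DESeq2 had 2 members, the 2 genes that led to the family, beside 0.723% of genes. Nothing is read from these counts, since this contrast chose the members. In all, 16 members were fitted lower and 14 higher, with a median log2 difference of -0.20 against 0.05 over all genes.

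Sema4f, a transmembrane ligand known from glutamatergic synapses and Schwann cell contacts, had 2.07, 38.4, 1.45 and 2.19 CPM in WT 12M S2, S6, S7 and S13 and ran from 0.435 through 0.592 to 0.776 in Het 12M. The difference of -4.16 ± 0.77 became -1.63 ± 0.38 without S6, and the remaining WT 12M samples still lay above all Het 12M samples. Sema6b had 28.2, 20.5, 17.7 and 16.5 CPM in WT 12M and ran from 1.86 through 6.01 to 17.6 in Het 12M, overlapping only at its upper end. The difference was -1.35 ± 0.47, and -2.18 ± 0.43 without S6, S9 and S15. Sema7a had 1.95, 233, 2.33 and 3.80 CPM in WT 12M and ran from 1.71 through 3.87 to 50.6 in Het 12M, the highest in S15. Its difference of -2.43 ± 1.18 became 2.06 ± 0.95 without S6 and -4.15 ± 1.13 without S15, so its sign changed with the libraries. In young cultures Sema7a had 5.70, 5.03, 4.76 and 3.28 CPM in WT 3M and 2.54, 2.58 and 4.78 in Het 3M. Plxnd1 had 65.2, 444, 56.4 and 21.1 CPM in WT 12M and ran from 7.20 through 35.6 to 244 in Het 12M. Its difference of -1.04 turned to 0.56 ± 0.73 without S6 and was -1.99 ± 0.71 without S9. In young cultures Plxnd1 had 37.1, 63.2, 47.8 and 40.1 CPM in WT 3M and 40.2, 30.5 and 49.0 in Het 3M. Plxnc1 had 13.1, 4.18, 6.90 and 8.36 CPM in WT 12M and ran from 2.16 through 15.9 to 121 in Het 12M, and its difference of 1.97 ± 0.79 was 0.79 ± 0.54 without S9. In young cultures Plxnc1 had 9.51, 10.9, 16.9 and 11.3 CPM in WT 3M and 26.2, 21.7 and 6.31 in Het 3M. These 5 genes were singled out for 12 months after their values were seen.

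2 libraries with markers of another lineage carried most of these extremes. WT 12M S6, with 231 CPM of Sox10 and 722 CPM of Ngfr, was the highest of all 17 samples for 9 of the 30 members: Plxna4, Plxnb1, Plxnb3, Plxnd1, Sema3g, Sema4c, Sema4f, Sema6a and Sema7a. S6 was highest for 10.6% of all tested genes, and among members it was lowest for Sema3c. Het 12M S9, the library with the macrophage markers, was highest for Nrp1, Nrp2, Plxnb2, Plxnc1, Sema4a and Sema4d, 6 members beside 14.2% of all genes. Sema4d, Sema4a and Plxnc1 are known from immune cells. Het 12M S15, with the smallest stromal sum, was lowest for 8 members, Nrp2, Plxna1, Plxna4, Plxnc1, Plxnd1, Sema3a, Sema3d and Sema6d, or 26.7% against 27.5% of all genes, a share near the background. The part of these other cells in each gene's level was not tested.

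**Figure D4:**
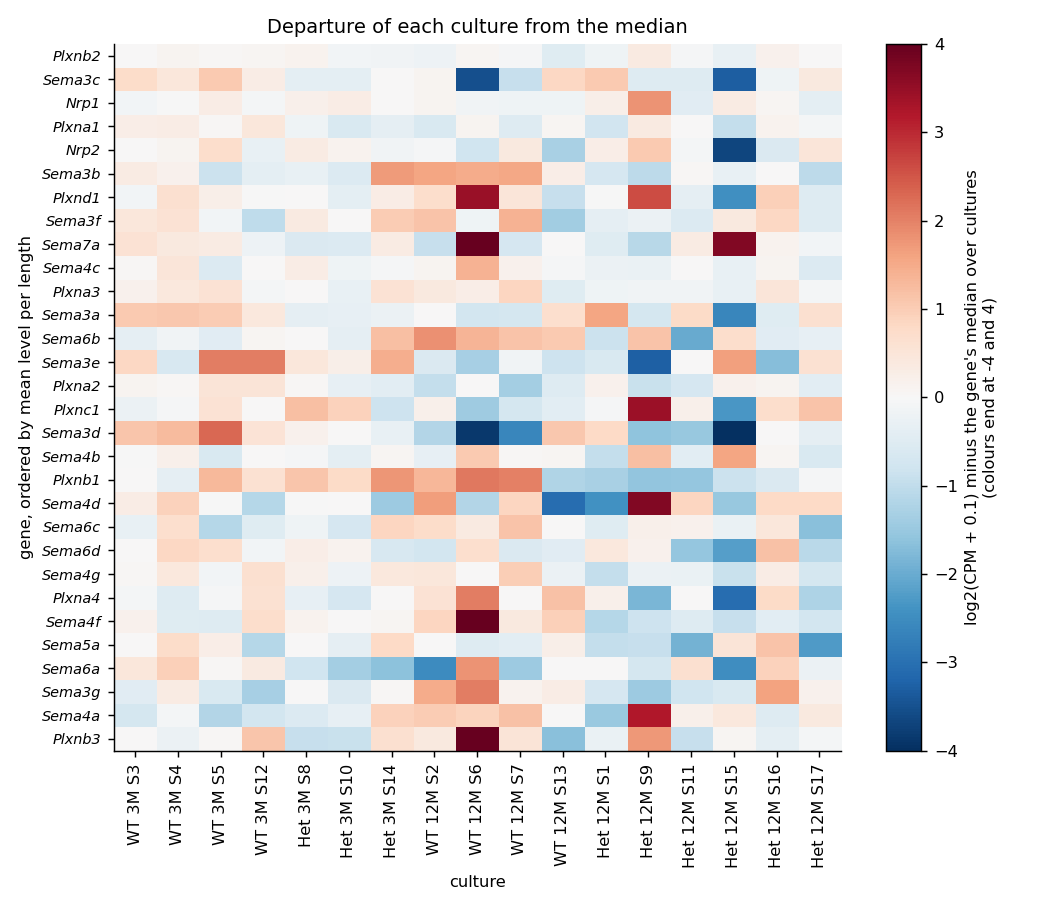
Departure of each of 17 samples (columns) from the gene's median over samples, in log2(CPM + 0.1), for the 30 tested genes (rows, ordered by mean level per length), with red above and blue below and colours ending at -4 and 4. WT 12M S6 is red for Sema7a, Sema4f, Plxnb3 and Plxnd1, Het 12M S9 for Sema4d, Sema4a and Plxnc1, and Het 12M S15 is blue for Sema3d and Nrp2.

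With age in WT cultures, 13 members were fitted lower and 17 higher, with a median log2 difference of 0.19, while 46.2% of all genes were fitted lower with a median of 0.04. By edgeR 0 of 30 members passed, beside 0% of all genes, and the smallest edgeR adjusted p of a member was 0.482. DESeq2 called 0 members beside 0.361% of genes. At an unadjusted p under 0.05 edgeR had 6 of the 28 members other than Sema3b and Plxnb1, beside 8.22% of genes: Sema4f, Plxna2, Sema6b, Sema3e, Sema7a and Sema3g. Plxna2 was lower at 12 months without overlap, 1 member beside 4.07% of genes. It had 53.6, 51.1, 70.7 and 70.3 CPM in WT 3M and 25.4, 49.4, 19.1 and 34.3 in WT 12M, a log2 difference of -0.94 ± 0.30 (edgeR adjusted p = 0.552), and in Het 12M it ran from 26.4 through 45.02 to 55.8. Sema4a and Sema6b were higher without overlap, 2 members beside 4.03%. Sema6b had 6.15, 7.19, 5.72 and 8.42 CPM in WT 3M against 16.5 to 28.2 in WT 12M, with 7.91, 6.08 and 18.5 in Het 3M. The difference between ages in WT was 1.59 ± 0.53 (edgeR adjusted p = 0.552). Sema4a had 0.385 to 0.936 against 0.998 to 2.37 CPM.

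Sema4f had 1.23, 0.739, 0.721 and 1.82 CPM in WT 3M, and its age difference of 3.28 ± 0.86 (edgeR adjusted p = 0.482) was 0.74 ± 0.42 without S6. Sema3e, the Plexin-D1 ligand, was at -2.08 ± 0.78, with 11.2, 6.67, 15.2 and 9.45 CPM in WT 12M. Its WT 3M range of 10.8 to 69.7 reached into these values. Sema3g was at 1.71 ± 0.68, and Sema7a at 3.68 ± 1.44, which became -0.80 ± 0.95 without S6. The 6 tested class 4 semaphorins were all fitted higher in WT 12M than in WT 3M, with a median of 0.44. Sema4b at 0.39 ± 0.50, Sema4d at 0.28 ± 1.07 and Sema4g at 0.10 ± 0.34 differed by less than their SE. Outside S6, which had 19.4 CPM of Sema4b and 51.0 of Sema4c, the WT 12M samples of both genes lay within their WT 3M ranges. A joint rise of the class with age is not shown.

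With age in Het cultures, 15 members were fitted lower and 15 higher, with a median of -0.00 against 0.07 over all genes, of which 42.3% were lower. By edgeR 0 of 30 members passed, beside 0% of all genes. DESeq2 called 0 members beside 0.00682% of genes. At an unadjusted p under 0.05 edgeR had 0 of the 28 members other than Sema3b and Plxnb1, beside 3.28% of genes. Het 12M lay below Het 3M without overlap for Plxnb1 and Sema4f, 2 members beside 1.42% of genes, and above for none, beside 0.49%. Plxnb1 helped choose the family by its low level in these Het 12M libraries, so nothing is read from the count. Sema4f had 1.19, 1.08 and 1.14 CPM in Het 3M. Sema4d, the ligand of Plexin-B1, had 5.77, 5.83 and 2.05 CPM in Het 3M and ran from 1.02 through 10.3 to 76.3 in Het 12M, the last in S9. The groups overlapped, and the difference of 2.02 ± 1.18 (edgeR adjusted p = 0.946) was 0.59 ± 0.91 without S9. In the WT cultures Sema4d was at 7.17, 11.2, 5.72 and 2.57 CPM at 3 months and 18.8, 2.54, 10.6 and 0.618 at 12 months.

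**Figure D5:**
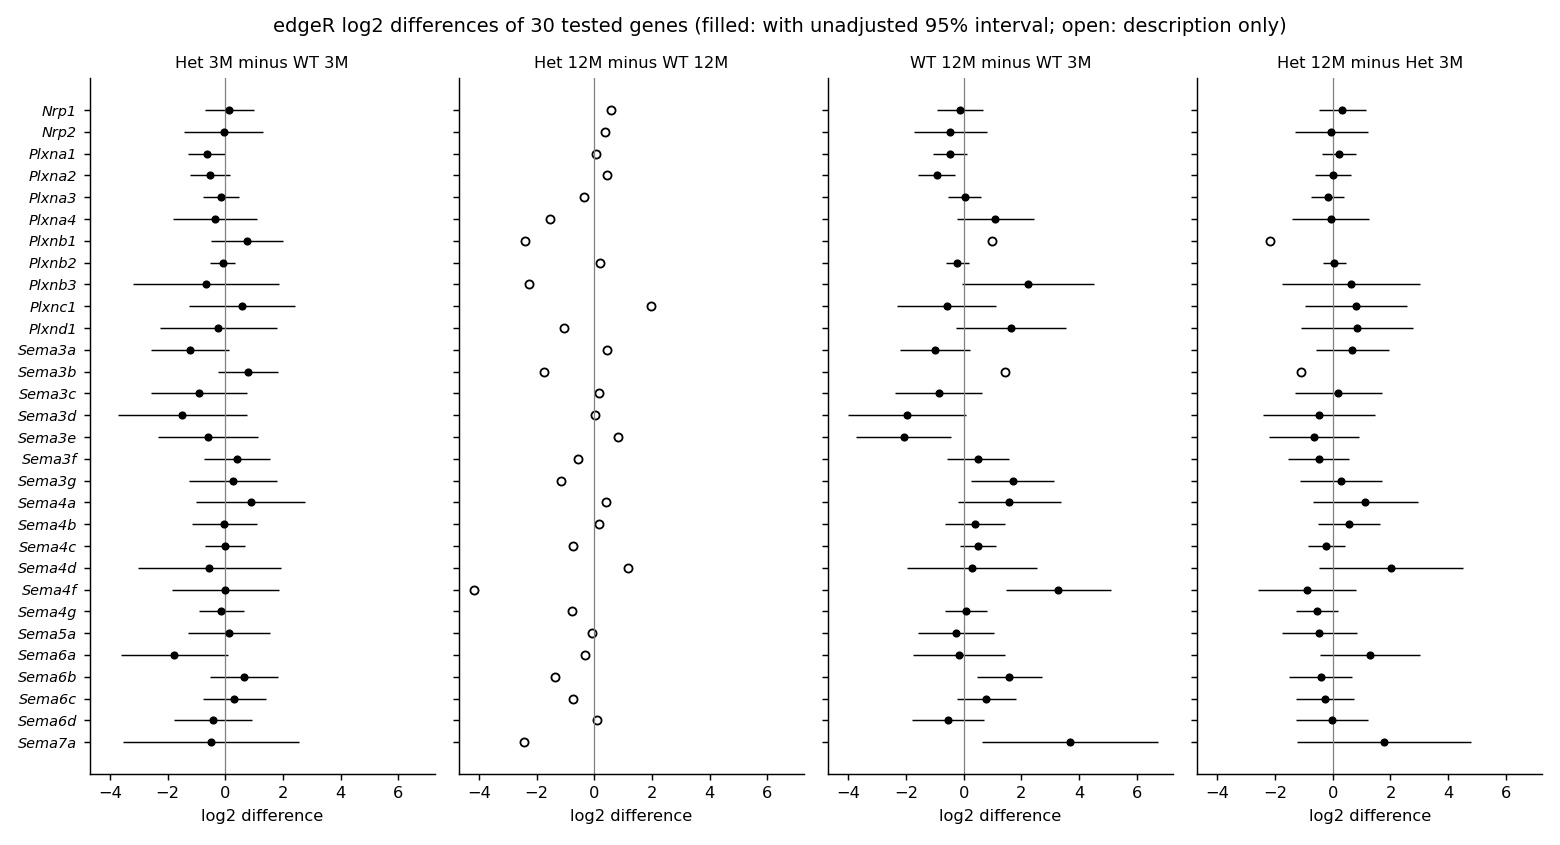
Fitted log2 difference (horizontal axes) of the 30 tested genes (rows) in 4 comparisons (panels), from 1 edgeR fit over 17 samples. Filled points carry their unadjusted 95% interval, and open points, without one, are values given as a description because they share samples with the choice of the family. Most intervals span 0.

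Genes that work with the family were taken from 3 lists. Of 20 tested receptor partners and rival ligands, such as the Met kinase and the VEGF ligands, 0 passed edgeR in Het 3M against WT 3M, and 12 were fitted lower, with a median of -0.11. The 2 with the smallest p were Vegfa, a rival ligand of Nrp1, at 110.0 ± 50.9 against 201 ± 35.9 CPM (log2 difference -0.87 ± 0.43), and Mst1r, the Ron kinase that associates with plexins of class B, at 3.72 ± 0.81 against 6.76 ± 2.11 CPM (-0.86 ± 0.50). The groups overlapped for Vegfa and did not for Mst1r. Of 34 tested plexin signal transducers 0 passed and 23 were fitted lower, with a median of -0.16. Pak1, a Rac-regulated kinase of the cytoskeleton, was at 81.2 ± 6.81 against 57.3 ± 8.85 CPM (0.50 ± 0.16), and Sh3bp1, a Rac GTPase-activating protein that binds Plexin-D1, at 13.2 ± 1.48 against 24.4 ± 4.39 (-0.89 ± 0.38). For both genes the groups did not overlap. Over all genes 3.57% lay lower and 3.21% higher in Het 3M without overlap. Mst1r, Pak1 and Sh3bp1 were picked for a small p, which favours such separation, so nothing is read from it. Of the 4 proprotein convertases, which cleave class 3 semaphorins, 0 passed and 3 were fitted lower. Furin was at 93.2 ± 15.7 against 120.2 ± 29.2 CPM (-0.37 ± 0.33) and Pcsk5 at 14.7 ± 1.07 against 17.4 ± 8.19 (-0.24 ± 0.80), both overlapping. Each of the 6 genes had an edgeR adjusted p of 1.00. In the other 3 comparisons edgeR called 0 genes of the 3 lists, beside 0% of all genes. Between the ages in WT, DESeq2 called 1 receptor partner and 1 transducer, beside 0.361% of all genes.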

How the data were processed

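RNA was sequenced from 17 cultures with the unstranded TruSeq RNA v2 kit, per the labels' protocols. The authors deposited raw counts per Entrez gene, made with Subread and featureCounts on mm10 per the submitters' processing notes. Versions, the gene models used and the treatment of multi-mapping reads are not given in the sources used here. All 68 columns were mapped to samples, and the 4 technical replicates of each sample were summed (chi-square per degree of freedom 1.02 to 1.06). Symbols came from RefSeq GRCm38.p6, for 25275 of 27179 rows. The other 1904 held 0.573% of counts and stayed out. Of the 31 members, 31 had a union exon length in GENCODE M21.

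Differences came from edgeR 4.0.16 (R 4.3.3): TMM, filterByExpr (minimum count 10, 14897 genes kept), 1 mean per group, a 2-sided quasi-likelihood F-test, Benjamini-Hochberg at 0.05. SE is the log2 difference over the square root of F. The biological coefficient of variation was 0.512. There was no sex term, since transcripts in WT 12M contradicted the labelled sex. The scripts were tested on simulated data. The family, its lists, marker lists and tests were chosen with earlier results of these data known. The rule for values per sample took Sema3b, Plxnb1, the 3 members with the smallest p in each of 3 tested comparisons and the highest member of each class per length, with Het 12M given as a range with its median, and the highest Sema5a sample in words. The 2 genes with the smallest p are given per pathway list. Further members were named after their values were seen. Alternatives were DESeq2 1.42.0 (14671 genes with an adjusted p), RLE or library-total scaling, no filter or 1 CPM in 3 samples, labelled sex or 4 Y-linked genes as a term, the 2 groups alone, technical replicate 1 alone, length-scaled shares, leaving out each sample, and leaving out S6, S9 and S15.

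Markers of endothelial cells summed to at most 97.8 CPM, of epithelial cells to at most 0.659, of osteoclasts to at most 233, of osteoblasts to between 944 and 7703, of smooth muscle and pericytes to between 430.4 and 7555, and of proliferation to between 70.8 and 558 CPM.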

Additional observations from a re-analysis of the deposited data

Results flagged for a closer look

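Within groups of 4 to 6 samples, 21 of 93 member groups held a sample far from the rest, where chance flags about 1 in 20 groups. By the same measure 19 of 90 groups of the 30 tested members (21.1%) and 13.8% of the groups of all tested genes held such a sample, with 23.8% of all genes in Het 12M, 6.95% in WT 12M and 10.7% in WT 3M. Genes of 1 library are not independent. Of these, 7 lay in WT 12M S6 and 6 in Het 12M S9. In S6 the high values were Plxnb3 at 8.16 CPM, Plxnd1 at 444.0, Sema4c at 51.0, Sema4f at 38.42, Sema5b at 0.4322, Sema6d at 18.25 and Sema7a at 233.2. In S9 they were Nrp1 at 805.5 CPM, Plxnb3 at 1.452, Plxnc1 at 121.3, Plxnd1 at 244.2, Sema4a at 9.958 and Sema4d at 76.29. Het 12M S16 was high for Plxna3 at 39.21 CPM, Sema3g at 4.656 and Sema5b at 0.0517, the last a single read (1, against 0 in the other Het 12M samples), and Het 12M S15 for Sema7a at 50.56. In WT 3M S12, Plxnb3 was high at 0.9095 CPM and Sema3a low at 57.06. In WT 12M, Nrp1 was high in S2 at 250.3 CPM and Sema3b low in S13 at 60.0.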

How the results depend on the processing

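No member passed edgeR in the 3 tested comparisons under any alternative run. Of 511 log2 differences of named members recomputed under the alternatives, 501 kept their direction and side of the threshold. This count says little, since no gene passed edgeR in the main fit and Sema3b and Plxnb1, which chose the family, are included. A kept direction could also be a much smaller difference. With age, Sema3b in Het went from -1.11 to -0.01 without Het 3M S14, and Sema4f in WT from 3.28 to 0.74 without WT 12M S6. Leaving out single samples put the young difference of Sema3b between -0.32 (without Het 3M S14) and 1.13, the age difference of Sema7a in WT between -0.80 (without WT 12M S6) and 4.09, and the genotype differences at 12 months of Sema7a between -4.15 and 2.06 and of Plxnd1 between -1.99 and 0.56, the high ends without S6. Without S6, S9 and S15 those of Sema7a were -0.80 and 0.51. For genotype at 12 months DESeq2 called 2 members and 106 genes in all. Leaving out single samples, edgeR called 0 to 1 members and 0 to 2 genes, the highest counts without WT 12M S13. DESeq2 called 53 genes for age in WT, 1 for age in Het, and 1 member and 35 genes for the genotype by age interaction. The members in these counts at 12 months and for the interaction are genes that chose the family, and nothing is read from them. Without S6, S9 and S15 edgeR called 2 genes for age in WT. The cause was not tested. RLE scaling and library totals each gave 6 members lower in Het 3M without overlap in place of 5 (3.62% and 3.15% of all genes), an alternative added after the data were seen. No paired analysis was possible because the numbers shared between groups are those of technical replicates, while each biological sample number belongs to 1 group. Groups of 3 to 6 cultures, 2 of 17 with markers of another lineage, limit every difference.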
